A study of Mus musculus with 9 samples.

Results

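The DNA replication machinery was followed as a set of 37 genes that license origins, form and activate the MCM helicase, synthesise DNA, load the sliding clamp, join the fragments of the lagging strand and coat single-stranded DNA. Members were chosen by name, through the gene symbol that the platform annotation gives a probe set, and 36 of the 37 were found among 19505 distinct symbols. Mcm7 was not analysed here. Each of the 36 had 1 probe set. Expression was measured on 9 arrays of E0771 cells, a mouse mammary tumour line, with 3 arrays per group. The control cells carried a scramble hairpin (scram), and the PC-depleted cells carried 1 of a pair of hairpins, shPC25 or shPC28, against Pcx, the gene of pyruvate carboxylase (PC). According to the paper, the hairpins were delivered by lentivirus and selected for with puromycin, and the labels name no further treatment. All groups grew in DMEM that held 10% FBS, 4 mM glutamine and 5.6 mM glucose. Nothing in the labels tells whether replicate arrays stem from different cultures or transductions, so each p-value reflects spread among these arrays alone, which may be technical.

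In animal cells, origins are marked by the origin recognition complex, which works with Cdc6 and Cdt1 to load the ring-shaped MCM helicase before S phase. Geminin, the product of Gmnn, binds Cdt1 and prevents a further round of loading in the same cycle. In S phase, Cdc45 and the GINS complex turn the loaded ring into an active helicase, primase starts each strand, and the polymerases delta and epsilon extend it with the help of PCNA. Many of these genes are known targets of the E2F transcription factors, which act late in G1.

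The labels were first checked against the targeted gene. Pcx read 9.18, 8.84 and 9.20 on the log2 scale in scram, 5.64, 5.43 and 5.53 in shPC25, and 7.01, 6.85 and 6.57 in shPC28, so the hairpin groups lay below scram without overlap and shPC25 was the lower of them. Its fall was 3.54 ± 0.15 (SE) on the log2 scale with shPC25 (adjusted p = 1.28e-05) and 2.26 ± 0.15 with shPC28 (adjusted p = 4.13e-06). Here and below, adjusted p is that of limma with the Benjamini-Hochberg correction over all 22206 probe sets, n is 3 arrays per group, and a gene was called changed at an adjusted p under 0.05. Arrays of 1 group correlated at 0.9954 to 0.9976 across probe sets, scram with shPC25 at 0.9916 to 0.9931 and scram with shPC28 at 0.9793 to 0.9811. The epithelial keratin gene Krt8 was high in every group and rose by 0.38 with shPC25 (adjusted p = 0.0147) and 0.72 with shPC28 (adjusted p = 0.000144). With shPC28, Cdh1 rose by 0.61 (adjusted p = 0.041) and Epcam fell by 0.74 (adjusted p = 0.0463), and 3 of 7 epithelial markers in scram and 4 of 7 in each hairpin group lay above 4.95, the median of all probe sets. None of the 5 leukocyte markers measured did so in any group (group means 2.44 to 3.47). Of 5 fibroblast markers, Pdgfrb and Col1a1 did in every group. Col1a1 fell by 0.96 with shPC25 (adjusted p = 0.00283) and 0.63 with shPC28 (adjusted p = 0.00866), while with shPC28 Pdgfrb fell by 2.12 (adjusted p = 0.000135) and Lum fell by 0.49 (adjusted p = 0.0231). Of 4 endothelial markers, Pecam1 alone lay above that median, in shPC28 (4.98), and Cdh5 fell by 0.69 and fell by 1.0 (adjusted p = 0.00501 and 0.000173). The part of these markers in the results was not tested. In bulk RNA, fewer cells in S phase and less RNA per cell cannot be told apart.

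Promoters are shown first, because some members that moved in opposite directions carried the same letters there. Of the 36 measured members, 28 had a promoter in the RefSeq table for the mouse build GRCm38.p6, each a window of 300 bases from 250 before to 50 after the transcription start. The E2F letters TTTCCCGC, TTTCGCGC, TTTGCCGC and TTTGGCGC were searched on both strands and were present in 12 of the 28 members (42.9%), against 704 of 27025 genes in the table (2.6%). The 12 were Cdc6, Cdt1, Gins3, Lig1, Mcm3, Mcm5, Mcm6, Orc1, Pola1, Pold1, Pole2 and Rfc3. Below are the 160 bases before the start of 3 members that fell with shPC28 (Orc1, Cdc6, Gins3) and 3 that rose (Mcm5, Rfc3, Pola1), read 5′ to 3′ on the strand of the gene, with the E2F letters in capitals. All of them were taken from the 12 members with these letters. In Mcm5 the capitals cover 2 overlapping matches.
Orc1, chr4:108579294-108579453, plus strand: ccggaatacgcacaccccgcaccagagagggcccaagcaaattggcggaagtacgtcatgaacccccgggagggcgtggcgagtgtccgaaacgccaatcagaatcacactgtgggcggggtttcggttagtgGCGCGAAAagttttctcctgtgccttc
Cdc6, chr11:98907991-98908150, plus strand: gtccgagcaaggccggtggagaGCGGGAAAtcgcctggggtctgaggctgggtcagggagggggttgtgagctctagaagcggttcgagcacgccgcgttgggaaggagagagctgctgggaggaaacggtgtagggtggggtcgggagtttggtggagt
Gins3, chr8:95633399-95633558, plus strand: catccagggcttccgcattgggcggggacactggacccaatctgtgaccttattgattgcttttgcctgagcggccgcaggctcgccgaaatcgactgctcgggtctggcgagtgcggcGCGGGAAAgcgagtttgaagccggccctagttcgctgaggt
Mcm5, chr8:75109349-75109508, plus strand: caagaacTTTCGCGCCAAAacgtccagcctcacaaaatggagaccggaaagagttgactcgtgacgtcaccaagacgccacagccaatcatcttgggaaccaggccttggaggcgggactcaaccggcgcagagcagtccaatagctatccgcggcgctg
Rfc3, chr5:151651209-151651368, minus strand: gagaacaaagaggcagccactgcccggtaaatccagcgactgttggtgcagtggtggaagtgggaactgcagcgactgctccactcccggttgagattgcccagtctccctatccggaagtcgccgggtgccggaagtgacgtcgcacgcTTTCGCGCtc
Pola1, chrX:93632156-93632315, minus strand: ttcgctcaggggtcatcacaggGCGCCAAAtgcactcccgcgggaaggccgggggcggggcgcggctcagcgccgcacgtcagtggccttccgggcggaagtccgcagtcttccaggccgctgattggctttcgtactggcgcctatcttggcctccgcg

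The E2F letters were present in 5 of the 11 members with a promoter that rose with shPC28, in 4 of the 8 that fell and in 3 of the 9 that were not called. The letters of the CCAAT box, CCAAT on either strand, were in 19 of 28 members (67.9%) and in 41.1% of all genes. They were in 8 of the 11 that rose, 5 of the 8 that fell and 6 of the 9 not called. The cell cycle homology region (CHR), TTTGAA or TTCGAA on either strand, was in 6 of 28 (21.4%) and in 21.7% of all genes. None of these motifs contains another, and a match describes the letters in the window only.

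With shPC25, 10 of the 36 members rose, 6 fell and 20 were not called, against 9.19% of all probe sets called higher and 11.3% called lower. With shPC28, 16 rose, 9 fell and 11 were not called, against 21.2% and 20.5% of all probe sets. These splits toward higher turned when arrays were centred on olfactory receptor probe sets, taken as genes with little expression in these cells, to 5 higher and 9 lower with shPC25 and to 10 higher and 12 lower with shPC28. Medians of those probe sets were 2.73 to 2.76 in scram, 2.78 to 2.84 in shPC25 and 2.93 to 2.97 in shPC28. Such dim probe sets set the shift that this scaling applies to the members, which are bright. Centring on array medians gave 12 higher and 5 lower with shPC25 and 19 higher and 9 lower with shPC28. Of all probe sets called, the share higher was 44.9% with shPC25 and 50.8% with shPC28, beside 32.0% and 31.5% with olfactory receptor centring and 61.5% and 60.7% with array-median centring. Arrays of the hairpin and scram did not overlap for 27 members with shPC25 (75.0%, beside 38.9% of all probe sets) and for 31 with shPC28 (86.1%, beside 51.1%). The members' median difference from scram was 0.15 with shPC25 and 0.20 with shPC28, beside 0.04 and 0.10 over all probe sets. Both comparisons use the same 3 scram arrays.

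All 36 members are bright, and calls are more frequent among bright probe sets. When only the brighter 50% of probe sets were tested, 33.3% of the members rose and 30.6% fell with shPC25, beside 22.4% and 24.9% of all probe sets tested there. With shPC28 the members' shares were 47.2% higher and 25.0% lower, beside 34.8% and 39.2%. The spread between arrays of a group was small, with a median SD of 0.09 in scram, 0.07 in shPC25 and 0.08 in shPC28. The least reproducible members were Lig1 in scram (SD 0.39), Rfc5 in shPC25 (SD 0.28) and Orc1 in shPC28 (SD 0.55).

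**Figure D1:**
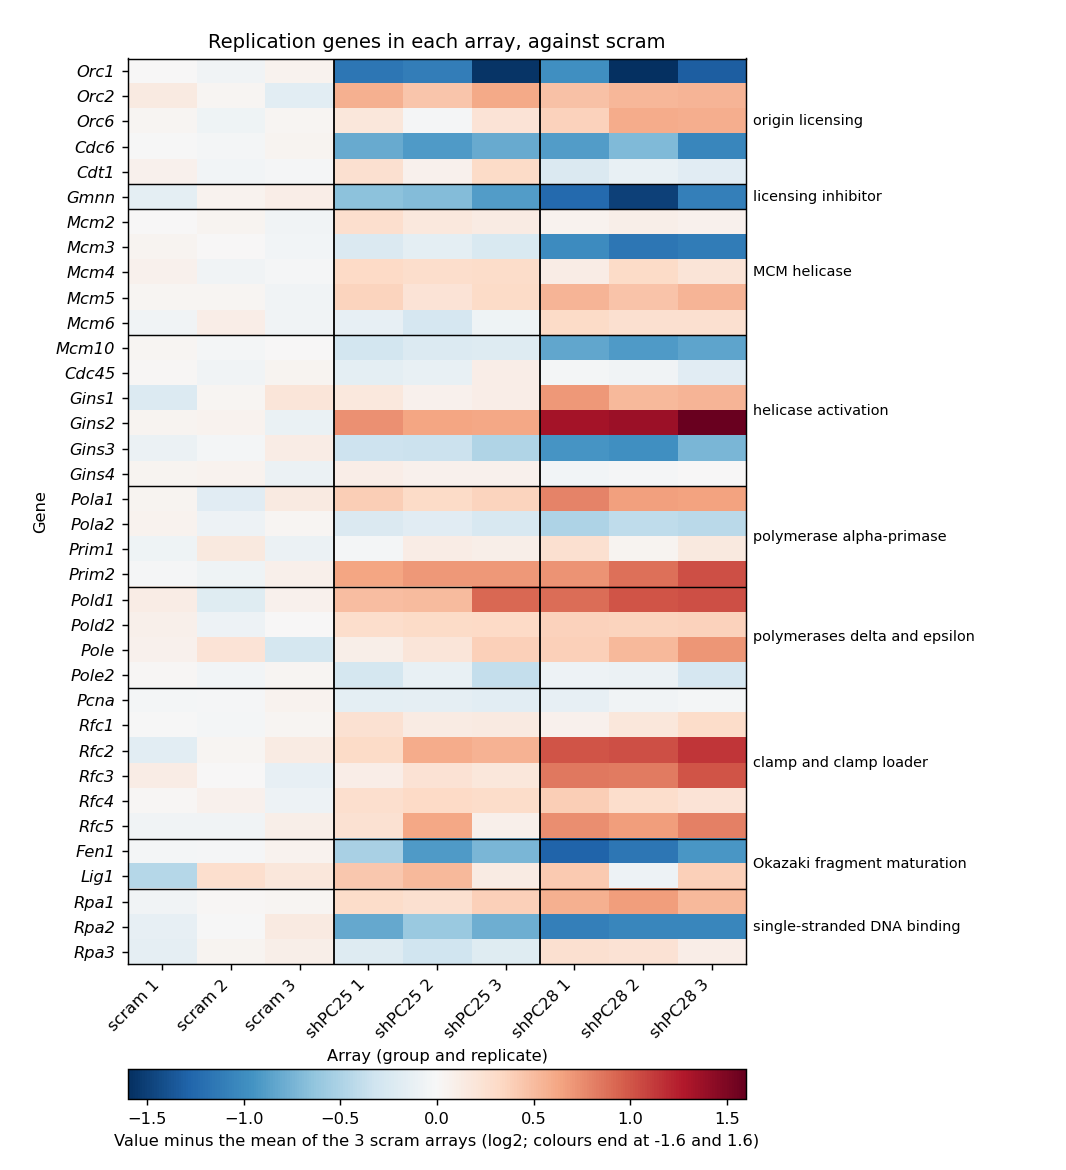
Each row is 1 of 36 replication genes, each column 1 array, and colour gives the log2 value minus the mean of the 3 scram arrays, with genes ordered by role. Orc1, Cdc6, Gmnn, Gins3, Fen1 and Rpa2 are blue in all 6 hairpin arrays and Gins2, Prim2, Pold1 and Rfc2 are red in all 6, while Mcm3 and Mcm10 are darkest blue in the 3 shPC28 arrays.

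The 36 members did not move as a block. Called in both comparisons were 9 that rose (Orc2, Mcm5, Gins2, Pola1, Prim2, Pold1, Pold2, Rfc2 and Rpa1) and 6 that fell (Orc1, Cdc6, Gmnn, Gins3, Fen1 and Rpa2), and no member was called in opposite directions. With shPC28 but not with shPC25, 7 more rose (Orc6, Mcm6, Gins1, Pole, Rfc3, Rfc4 and Rfc5) and 3 more fell (Mcm3, Mcm10 and Pola2). Mcm4 was called higher with shPC25 and not with shPC28. Neither comparison called Cdt1, Mcm2, Cdc45, Gins4, Prim1, Pole2, Pcna, Rfc1, Lig1 or Rpa3. How often all probe sets were called in both comparisons was not counted. The scram arrays are shared, which favours calls of the same direction. The shPC25 mean lay between those of scram and shPC28 for 26 of the 36 members (72.2%) and for 54.9% of all probe sets. Pcx itself ran in another order, lowest in shPC25.

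**Figure D2:**
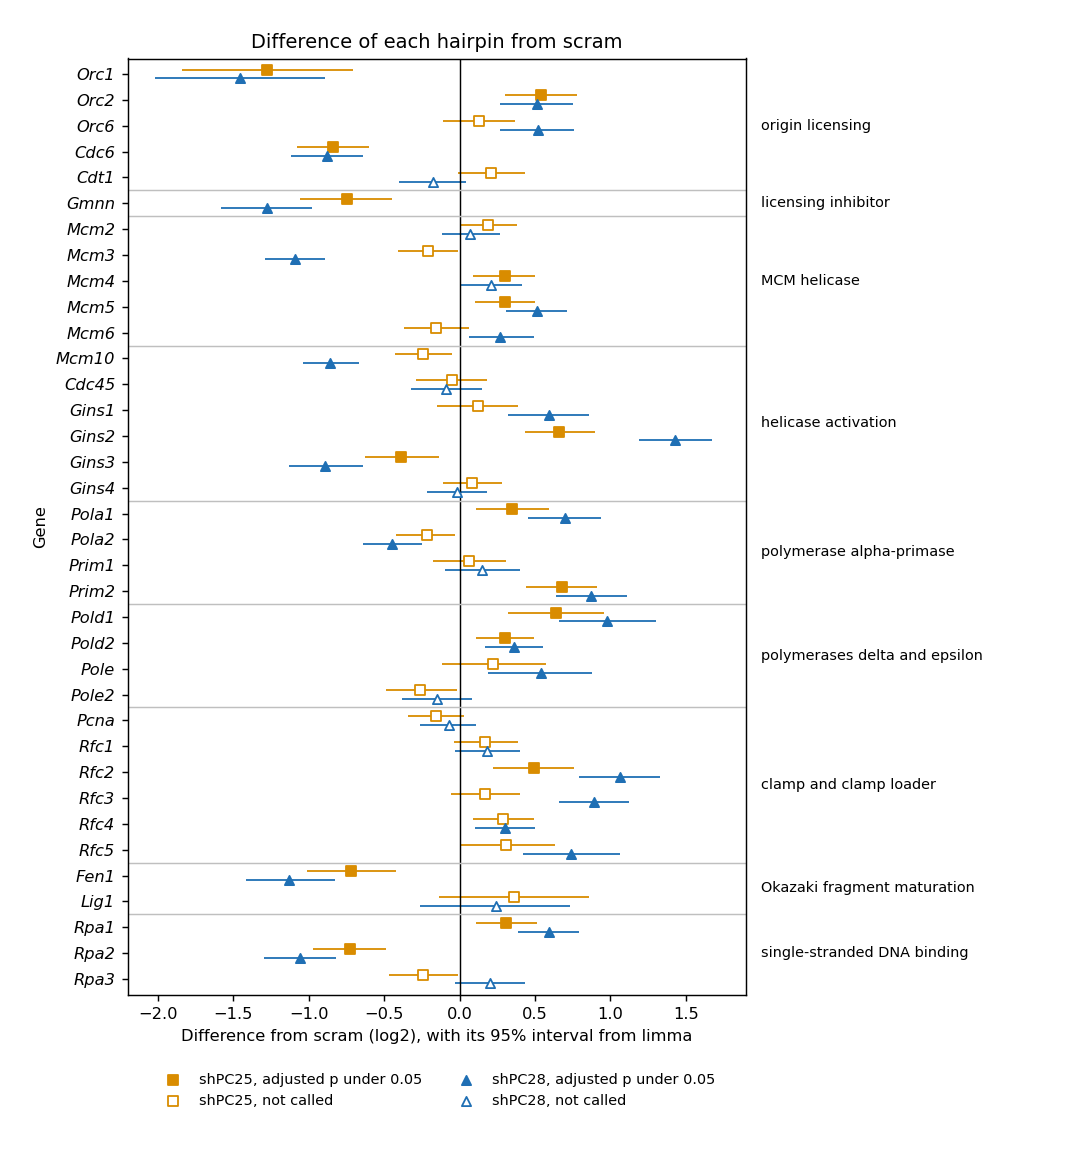
Differences from scram on the log2 scale, with 95% intervals from limma, are drawn for shPC25 (squares) and shPC28 (triangles), filled where the adjusted p was under 0.05. Orc1 has the lowest values in both comparisons (-1.28 and -1.46), and Gins2 the highest with shPC28 (1.43). The balance of filled points turns toward lower when arrays are centred on olfactory receptor probe sets.

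Genes of origin licensing moved in opposite directions. Orc1, an ATP-binding subunit of the origin recognition complex, read 9.94, 9.88 and 9.99 in scram, 8.78, 8.83 and 8.37 in shPC25, and 8.95, 7.87 and 8.62 in shPC28. Every hairpin array lay below every scram array, with the widest spread in shPC28, where replicate 2 was lowest. Its level fell by 1.28 ± 0.25 (SE) on the log2 scale with shPC25, a 2.42-fold fall (adjusted p = 0.00754), and by 1.46 ± 0.25 with shPC28, a 2.74-fold fall (adjusted p = 0.0013). Cdc6, the ATPase that helps to load the MCM ring, read 11.91, 11.89 and 11.96 in scram, 11.11, 11.01 and 11.12 in shPC25, and 11.03, 11.21 and 10.88 in shPC28. The hairpin arrays overlapped each other and not scram. Cdc6 fell by 0.84 ± 0.11 with shPC25 (1.79-fold, adjusted p = 0.000907) and by 0.88 ± 0.11 with shPC28 (1.84-fold, adjusted p = 0.000142).

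Orc2, a core subunit of the same complex as Orc1, went the other way. Its arrays read 13.06, 12.95 and 12.75 in scram, 13.49, 13.37 and 13.53 in shPC25, and 13.39, 13.45 and 13.46 in shPC28, with no overlap between scram and either hairpin. It rose by 0.54 ± 0.11 with shPC25 (adjusted p = 0.00731) and by 0.51 ± 0.11 with shPC28 (adjusted p = 0.00374). Orc6, the smallest subunit, rose by 0.52 ± 0.11 with shPC28 (adjusted p = 0.00392), and its difference with shPC25 was 0.13 ± 0.11 (adjusted p = 0.453). Centring on olfactory receptor probe sets ended the shPC28 calls of Orc2 (adjusted p = 0.0599) and Orc6 (adjusted p = 0.0612).

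Cdt1, the loader that brings MCM to the origin, and Gmnn, its inhibitor, did not follow each other. Cdt1 read 14.83, 14.71 and 14.74 in scram, 15.02, 14.83 and 15.06 in shPC25, and 14.53, 14.64 and 14.58 in shPC28. The shPC28 arrays lay below all others, and those of scram and shPC25 met at 14.83. Its difference from scram was 0.21 ± 0.10 with shPC25 (adjusted p = 0.174) and -0.18 ± 0.10 with shPC28 (adjusted p = 0.183), and neither was called, although olfactory receptor centring gave a call with shPC28 (adjusted p = 0.0199). Gmnn read 11.06, 11.27 and 11.33 in scram, 10.56, 10.52 and 10.32 in shPC25, and 9.98, 9.72 and 10.12 in shPC28. The 3 groups formed 3 separate steps. Gmnn fell by 0.75 ± 0.13 with shPC25 (1.69-fold, adjusted p = 0.00489) and by 1.28 ± 0.13 with shPC28 (2.43-fold, adjusted p = 6.48e-05).

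Between the MCM subunits the differences from scram ran from -1.09 to 0.51. Mcm3 read 14.80, 14.76 and 14.71 in scram, 14.52, 14.60 and 14.51 in shPC25, and 13.75, 13.60 and 13.64 in shPC28. Its shPC28 arrays lay far below those of both other groups. It fell by 1.09 ± 0.09 with shPC28 (2.13-fold, adjusted p = 1.39e-05), and its difference with shPC25 was -0.21 ± 0.09 (adjusted p = 0.128). Mcm5, at 14.26, 14.26 and 14.17 in scram, read 14.59, 14.45 and 14.54 in shPC25 and 14.77, 14.69 and 14.77 in shPC28. It was higher in each hairpin array than in any scram array, and rose by 0.30 ± 0.09 with shPC25 (adjusted p = 0.0429) and by 0.51 ± 0.09 with shPC28 (adjusted p = 0.00126).

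The other 3 subunits measured differed less from scram. Mcm2 read 14.44, 14.48 and 14.38 in scram, 14.70, 14.60 and 14.57 in shPC25, and 14.49, 14.53 and 14.50 in shPC28, and was called in neither comparison (adjusted p = 0.162 and 0.531), with 95% intervals of 0.00 to 0.38 and -0.12 to 0.27. Mcm4 read 13.49, 13.37 and 13.41 in scram, 13.74, 13.70 and 13.72 in shPC25, and 13.54, 13.73 and 13.63 in shPC28. Its rise was 0.30 ± 0.09 with shPC25 (adjusted p = 0.0481), and its difference with shPC28 was 0.21 ± 0.09 (adjusted p = 0.0948). Mcm6 read 14.33, 14.49 and 14.33 in scram, 14.25, 14.12 and 14.31 in shPC25, and 14.69, 14.64 and 14.64 in shPC28. It was highest in all 3 shPC28 arrays, where it rose by 0.27 ± 0.09 (adjusted p = 0.0452).

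Calls of these small MCM differences lay near the threshold of 0.05 and were lost with 1 array left out or under other scalings. The shPC25 call of Mcm5 was lost without any 1 of the 9 arrays (adjusted p = 0.0514 to 0.135), that of Mcm4 without any array but shPC28 replicate 2 (adjusted p = 0.0505 to 0.142), and the shPC28 call of Mcm6 without any array but scram replicate 2 or shPC25 replicate 2 (adjusted p = 0.0556 to 0.128). Centring on olfactory receptor probe sets also ended these 3 calls (adjusted p = 0.139, 0.155 and 0.63), and quantile normalization those of Mcm4 (adjusted p = 0.0579) and Mcm6 (adjusted p = 0.121). The shPC28 calls of Mcm3 and Mcm5 held with each array left out and under each scaling.

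The GINS complex, which joins Cdc45 on the MCM ring to form the active helicase, moved in both directions among its own subunits. Gins2 read 10.55, 10.56 and 10.40 in scram, 11.24, 11.14 and 11.12 in shPC25, and 11.84, 11.87 and 12.09 in shPC28. The 3 groups did not overlap. Gins2 rose by 0.66 ± 0.10 with shPC25 (1.58-fold, adjusted p = 0.00266) and by 1.43 ± 0.10 with shPC28 (2.69-fold, adjusted p = 7.85e-06). Gins3, a subunit of the same complex, read 11.85, 11.92 and 12.07 in scram, 11.61, 11.60 and 11.47 in shPC25, and 11.00, 10.96 and 11.22 in shPC28. Here too the groups formed separate steps, in the opposite order. Gins3 fell by 0.39 ± 0.11 with shPC25 (adjusted p = 0.0364) and by 0.89 ± 0.11 with shPC28 (1.85-fold, adjusted p = 0.000171). Gins3 lost its shPC25 call when any 1 of the scram or shPC25 arrays was left out (adjusted p = 0.0518 to 0.126) and with array-median centring (adjusted p = 0.0852).

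Gins1 read 12.74, 12.99 and 13.15 in scram, 13.13, 13.03 and 13.07 in shPC25, and 13.65, 13.48 and 13.51 in shPC28. Only the shPC28 arrays stood above scram, by 0.59 ± 0.12 (adjusted p = 0.00349). Mcm10, a scaffold that stimulates the switch to the active helicase, read 13.54, 13.48 and 13.51 in scram, 13.22, 13.29 and 13.30 in shPC25, and 12.68, 12.61 and 12.67 in shPC28. It fell by 0.86 ± 0.08 with shPC28 (1.81-fold, adjusted p = 3.95e-05), and its difference with shPC25 was -0.24 ± 0.08 (adjusted p = 0.0737). Neither Gins4 nor Cdc45 was called. The 95% intervals with shPC28 were -0.22 to 0.18 for Gins4 and -0.32 to 0.15 for Cdc45, so a 1.43-fold change such as that of Mcm5 lay outside both.

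In polymerase alpha-primase, which makes the primers, neither the primase pair nor the polymerase pair moved together. Prim2, the large primase subunit, read 12.98, 12.94 and 13.09 in scram, 13.64, 13.70 and 13.70 in shPC25, and 13.72, 13.88 and 14.03 in shPC28. All hairpin arrays were above scram, and Prim2 rose by 0.68 ± 0.10 with shPC25 (1.6-fold, adjusted p = 0.00246) and by 0.87 ± 0.10 with shPC28 (1.83-fold, adjusted p = 0.000142). Prim1, the catalytic primase subunit, was not called, at 0.06 ± 0.11 (adjusted p = 0.738) and 0.15 ± 0.11 (adjusted p = 0.304). Pola1, the catalytic polymerase subunit, rose by 0.35 ± 0.11 with shPC25 (adjusted p = 0.0494) and by 0.70 ± 0.11 with shPC28 (adjusted p = 0.000682). Pola2, its accessory subunit, fell by 0.45 ± 0.09 with shPC28 (adjusted p = 0.00279) and differed by -0.22 ± 0.09 with shPC25 (adjusted p = 0.11). Without any 1 of the 9 arrays, the shPC25 call of Pola1 was lost (adjusted p = 0.0509 to 0.156), as it was with olfactory receptor centring (adjusted p = 0.107).

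Among the polymerases that extend the strands, both catalytic subunits rose with shPC28. Pold1, the catalytic subunit of polymerase delta, read 10.55, 10.24 and 10.50 in scram, 10.92, 10.94 and 11.35 in shPC25, and 11.32, 11.44 and 11.46 in shPC28. The shPC25 and shPC28 arrays overlapped, through shPC25 replicate 3, and both lay above scram. Pold1 rose by 0.64 ± 0.14 with shPC25 (1.56-fold, adjusted p = 0.0133) and by 0.98 ± 0.14 with shPC28 (1.97-fold, adjusted p = 0.00047). Pold2, the accessory subunit of the same enzyme, rose by 0.30 ± 0.09 with shPC25 (adjusted p = 0.0376) and by 0.36 ± 0.09 with shPC28 (adjusted p = 0.00814). Pole, the catalytic subunit of polymerase epsilon, rose by 0.54 ± 0.15 with shPC28 (adjusted p = 0.0188) and differed by 0.22 ± 0.15 with shPC25 (adjusted p = 0.354). Pole2 was called with neither, at -0.26 ± 0.10 (adjusted p = 0.118) and -0.15 ± 0.10 (adjusted p = 0.279).

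Several of these calls were lost when 1 array was left out. For Pold1 the shPC25 call ended when scram replicate 2 was left out (adjusted p = 0.0518). For Pole the shPC28 call ended in the absence of scram replicate 3 (adjusted p = 0.063) or of shPC28 replicate 3 (adjusted p = 0.0625). The shPC25 call of Pold2 was lost without any array but scram replicate 1 or shPC28 replicate 2 (adjusted p = 0.0501 to 0.126). With centring on olfactory receptor probe sets, Pold2 was called with neither hairpin (adjusted p = 0.12 and 0.201), Pole was no longer called with shPC28 (adjusted p = 0.141), and Pole2 was called lower with both (adjusted p = 0.0459 and 0.019).

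The clamp loader, replication factor C, had 4 of its 5 subunits called higher with shPC28 and none called lower in any of the scalings tried. Rfc2 read 11.45, 11.65 and 11.74 in scram, 11.92, 12.21 and 12.17 in shPC25, and 12.62, 12.64 and 12.76 in shPC28. The 3 groups did not overlap. Rfc2 rose by 0.49 ± 0.12 with shPC25 (adjusted p = 0.0199) and by 1.06 ± 0.12 with shPC28 (2.08-fold, adjusted p = 9.67e-05). Rfc3 read 9.75, 9.64 and 9.50 in scram, 9.74, 9.86 and 9.81 in shPC25, and 10.48, 10.46 and 10.63 in shPC28. Scram and shPC25 overlapped at 9.74 to 9.75, and shPC28 stood apart with a rise of 0.89 ± 0.10 (1.86-fold, adjusted p = 0.000108).

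Rfc5 rose by 0.74 ± 0.14 with shPC28 (1.67-fold, adjusted p = 0.00233) and Rfc4 by 0.30 ± 0.09 (adjusted p = 0.0252). Their differences with shPC25 were 0.31 ± 0.14 (adjusted p = 0.159) and 0.29 ± 0.09 (adjusted p = 0.0523). Rfc1, the large subunit that opens the clamp, was not called, at 0.17 ± 0.09 (adjusted p = 0.248) and 0.18 ± 0.09 (adjusted p = 0.157). Rfc4 was no longer called with shPC28 in the absence of scram replicate 1 (adjusted p = 0.0551), of scram replicate 3 (adjusted p = 0.088) or of shPC28 replicate 1 (adjusted p = 0.0791), or with olfactory receptor centring (adjusted p = 0.451). The shPC25 call of Rfc2 was lost without scram replicate 1, scram replicate 2, shPC25 replicate 2 or shPC25 replicate 3 (adjusted p = 0.0531 to 0.0691).

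Pcna, the sliding clamp itself, read 16.59, 16.61 and 16.68 in scram, 16.47, 16.48 and 16.46 in shPC25, and 16.50, 16.57 and 16.59 in shPC28. Its arrays spanned a narrow range, with shPC25 lowest and scram touching shPC28. The differences from scram were -0.16 ± 0.08 (95% interval -0.34 to 0.03, adjusted p = 0.233) and -0.07 ± 0.08 (95% interval -0.26 to 0.11, adjusted p = 0.517). With shPC28, Pcna was called lower under quantile normalization (adjusted p = 0.0311) and olfactory receptor centring (adjusted p = 0.035).

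**Figure D3:**
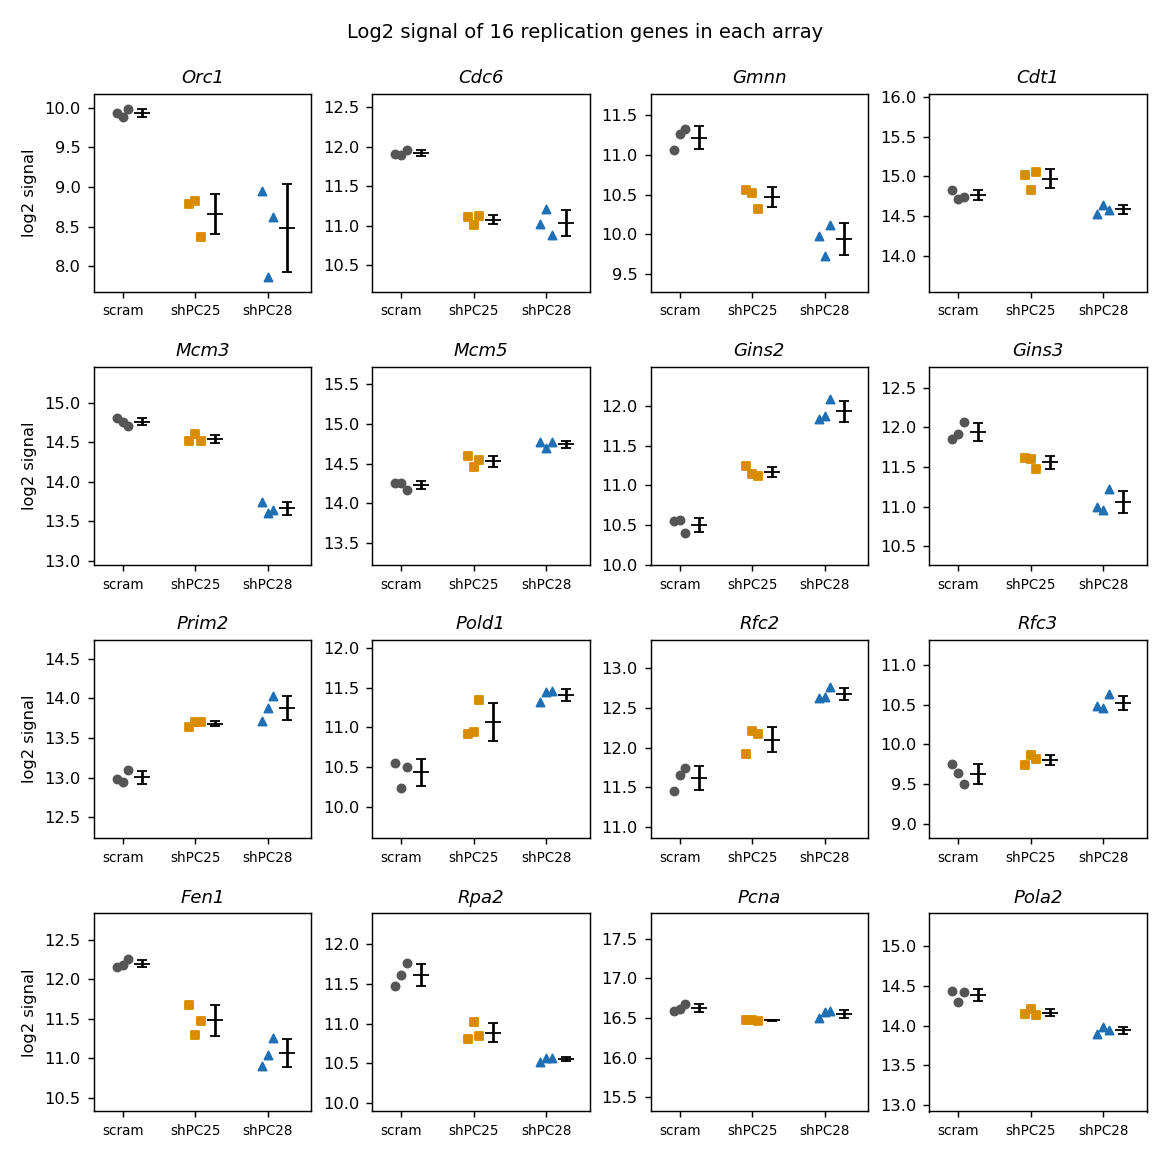
Log2 signal of 16 members in each array, with the mean and SD of the 3 arrays of a group in black, on axes that span the same log2 range in every panel. Gins2 and Rfc2 step up and Gmnn and Gins3 step down from scram to shPC25 to shPC28, Orc1 and Cdc6 are low with both hairpins, and Pcna stays between 16.46 and 16.68. Pcx, not drawn here, was lowest in shPC25.

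On the lagging strand, Fen1, the nuclease that trims the flaps of Okazaki fragments, read 12.16, 12.18 and 12.25 in scram, 11.68, 11.29 and 11.47 in shPC25, and 10.91, 11.04 and 11.26 in shPC28. The 3 groups did not overlap, although shPC25 replicate 2 and shPC28 replicate 3 came close. Fen1 fell by 0.72 ± 0.13 with shPC25 (1.64-fold, adjusted p = 0.00543) and by 1.13 ± 0.13 with shPC28 (2.18-fold, adjusted p = 0.000116). Lig1, the ligase that seals them, read 7.93, 8.65 and 8.57 in scram and 8.30 to 8.90 in the hairpin arrays. Scram replicate 1 was the lowest of the 9 arrays and the groups overlapped. Lig1 was not called, with wide 95% intervals of -0.14 to 0.86 with shPC25 and -0.26 to 0.73 with shPC28, and it was called higher with shPC28 under quantile normalization (adjusted p = 0.0283).

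The 3 subunits of replication protein A, which coats single-stranded DNA, went 3 ways. Rpa2 read 11.48, 11.61 and 11.76 in scram, 10.80, 11.02 and 10.84 in shPC25, and 10.52, 10.57 and 10.57 in shPC28. Its groups did not overlap, and it fell by 0.73 ± 0.11 with shPC25 (1.66-fold, adjusted p = 0.0019) and by 1.06 ± 0.11 with shPC28 (2.09-fold, adjusted p = 4.96e-05). Rpa1, the large subunit with the main DNA binding surface, rose by 0.31 ± 0.09 with shPC25 (adjusted p = 0.0369) and by 0.59 ± 0.09 with shPC28 (adjusted p = 0.000614). Rpa3, the smallest, read 13.00, 13.18 and 13.24 in scram, 12.94, 12.82 and 12.95 in shPC25, and 13.39, 13.37 and 13.25 in shPC28. It differed from scram by -0.24 ± 0.10 (adjusted p = 0.14) and 0.20 ± 0.10 (adjusted p = 0.154). The shPC25 call of Rpa1 was lost without any 1 of the scram or shPC25 arrays (adjusted p = 0.0634 to 0.111) and with olfactory receptor centring (adjusted p = 0.125).

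Both hairpins were then compared with each other, since they target 1 gene. In shPC28 against shPC25, 8 members were higher, 7 were lower and 21 were not called, beside 11.8% and 14.5% of all probe sets. Olfactory receptor centring turned that balance to 3 higher and 8 lower, quantile normalization gave 10 and 4, and centring on array medians gave 9 and 5. Of all probe sets called, the share higher was 44.8%, and under those scalings, in that order, 26.5%, 51.7% and 44.8%. For the members' calls it was 53.3%, and then 27.3%, 71.4% and 64.3%. Arrays did not overlap for 24 members, against 39.5% of all probe sets, and among the brighter 50% of probe sets tested alone 30.6% of members were higher and 22.2% lower, beside 24.4% and 31.1%. Higher with shPC28 were Gins2 by 0.77 ± 0.10 (adjusted p = 0.000752), Rfc3 by 0.72 ± 0.10 (adjusted p = 0.000935) and Rfc2 by 0.57 ± 0.12 (adjusted p = 0.00692). Gins1, Rpa3, Mcm6, Orc6 and Pola1 were also higher, by 0.35 to 0.47.

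Lower with shPC28 than with shPC25 were Mcm3 by -0.88 ± 0.09 (adjusted p = 0.000152), Mcm10 by -0.62 ± 0.08 (adjusted p = 0.000705) and Gins3 by -0.50 ± 0.11 (adjusted p = 0.00911). Gmnn, Fen1, Cdt1 and Rpa2 were lower by -0.53, -0.41, -0.39 and -0.33. Orc1, Cdc6 and Orc2 showed no call between the hairpins, with 95% intervals of -0.75 to 0.39, -0.28 to 0.20 and -0.27 to 0.21. All 8 calls among Mcm3, Mcm10, Gins3, Mcm6, Gins2, Rfc2, Rfc3 and Rpa3 held with any 1 array left out, while those of Orc6, Gins1, Pola1, Cdt1, Gmnn, Fen1 and Rpa2 did not. Olfactory receptor centring ended the calls of Mcm6 (adjusted p = 0.0614), Rpa3 (adjusted p = 0.0607), Gins1 (adjusted p = 0.0623), Orc6 (adjusted p = 0.147) and Pola1 (adjusted p = 0.172). Quantile normalization ended those of Gmnn (adjusted p = 0.112), Fen1 (adjusted p = 0.132) and Rpa2 (adjusted p = 0.212), and array-median centring those of Fen1 (adjusted p = 0.0505) and Rpa2 (adjusted p = 0.0542).

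With 1 array left out, those 7 calls were lost as follows. Fen1 lost its call without any array but shPC25 replicate 2 or shPC28 replicate 3 (adjusted p = 0.067 to 0.145), and Rpa2 without any array but scram replicate 1 or scram replicate 3 (adjusted p = 0.065 to 0.144). Pola1 lost it without scram replicate 1 or any hairpin array (adjusted p = 0.0598 to 0.118). Without shPC25 replicate 1, Gmnn (adjusted p = 0.0635), Cdt1 (adjusted p = 0.0604) and Orc6 (adjusted p = 0.0528) were not called. Without shPC25 replicate 2 the same held for Gmnn (adjusted p = 0.0579), Gins1 (adjusted p = 0.0573) and Orc6 (adjusted p = 0.0883), and without shPC25 replicate 3 for Cdt1 (adjusted p = 0.0657) and Gins1 (adjusted p = 0.053). Leaving out shPC28 replicate 1 ended the calls of Cdt1 (adjusted p = 0.0533) and Gins1 (adjusted p = 0.0585), replicate 2 those of Gmnn (adjusted p = 0.0532) and Orc6 (adjusted p = 0.0754), and replicate 3 that of Orc6 (adjusted p = 0.0789). In the other direction, Pold1 was called higher without shPC25 replicate 3 (adjusted p = 0.032) and Rfc5 without shPC25 replicate 2 (adjusted p = 0.00854).

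Beyond the members, 39 other replication factors were measured, of which 7 rose and 8 fell in shPC25 cells (17.9% and 20.5%, beside 9.19% and 11.3% of all probe sets), while in shPC28 cells 14 rose and 17 fell (35.9% and 43.6%, beside 21.2% and 20.5%). With shPC25 the counts were 8 and 7 under array-median centring and 4 and 9 under olfactory receptor centring. With shPC28 they were 16 and 15 under quantile normalization, 14 and 16 under array-median centring and 9 and 20 under olfactory receptor centring. Among the brighter 50% of probe sets tested alone, 22.4% rose and 24.9% fell with shPC25, and 34.8% and 39.2% with shPC28. The shares of this list and of the lists below come from the test over all probe sets. Dna2, a nuclease and helicase that works beside Fen1, fell by 1.55 ± 0.22 and 2.70 ± 0.22, a 2.93-fold and a 6.5-fold fall (adjusted p = 0.00171 and 1.57e-05). Clspn, the checkpoint mediator Claspin that travels with the fork, fell by 1.20 ± 0.17 and 1.98 ± 0.17 (adjusted p = 0.00169 and 2.03e-05). Topbp1, which takes part in origin firing, fell by 0.58 ± 0.11 and 1.48 ± 0.11 (adjusted p = 0.00716 and 1e-05), and Mcmbp, which binds MCM subunits, by 0.55 ± 0.09 and 1.49 ± 0.09 (adjusted p = 0.00344 and 2.89e-06). With shPC28, Rif1, a regulator of replication timing, fell by 1.38 ± 0.14 (adjusted p = 4.43e-05). Chtf18 and Chtf8 belong to an alternative clamp loader that shares Rfc2 to Rfc5, and they moved apart. Chtf18 rose by 0.95 ± 0.11 and 1.01 ± 0.11 (adjusted p = 0.000648 and 7.76e-05), and Chtf8 fell by 1.18 ± 0.11 with shPC28 (adjusted p = 3.5e-05). Orc4, a further origin recognition subunit, rose by 0.59 ± 0.08 and 0.79 ± 0.08 (adjusted p = 0.00178 and 7.56e-05).

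Cdt1 protein is marked for destruction by the SCF-Skp2 and CRL4-Dtl ubiquitin ligases. Of their 7 subunits, 1 was higher and 3 were lower with shPC25, and 2 were higher and 5 lower with shPC28, or 0 and 3 and then 1 and 5 with olfactory receptor centring. The shares lower were 42.9% and 71.4%, beside 11.3% and 20.5% of all probe sets. Tested alone, the brighter 50% of probe sets had 24.9% and 39.2% lower. Skp2, the substrate receptor of the first, fell by 3.53 ± 0.13 with shPC25 (11.6-fold, adjusted p = 8.64e-06) and fell by 3.31 ± 0.13 with shPC28 (9.92-fold, adjusted p = 5.52e-07). Its partners Skp1 and Cul1 fell by 0.39 ± 0.08 and 0.44 ± 0.09 with shPC25 (adjusted p = 0.00991 and 0.00941) and by 0.61 ± 0.08 and 0.54 ± 0.09 with shPC28 (adjusted p = 0.00027 and 0.00115). Of the second ligase, Dtl, the receptor that reads Cdt1 on PCNA, fell by 0.91 ± 0.16 with shPC28 (adjusted p = 0.00147), and Cul4a by 1.21 ± 0.13 (adjusted p = 6.93e-05). Ddb1 rose with both hairpins, by 0.29 ± 0.08 (adjusted p = 0.0359) and 0.43 ± 0.08 (adjusted p = 0.00266), and Cul4b rose with shPC28 by 0.53 ± 0.10 (adjusted p = 0.00255). Ddb1 lost its shPC25 call when any 1 scram or shPC25 array was left out (adjusted p = 0.07 to 0.109) or when the arrays of those groups were fitted alone (adjusted p = 0.0594), and both calls with olfactory receptor centring (adjusted p = 0.123 and 0.0717).

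Regulators of the G1/S transition leaned to lower levels. Of 27 measured, 10 fell and 1 rose with shPC25, and 18 fell and 2 rose with shPC28, with median differences of -0.26 and -0.62. The shares that fell were 37.0% and 66.7%, beside 11.3% and 20.5% of all probe sets, and more fell than rose under each scaling. Of the brighter 50% of probe sets tested alone, 24.9% fell with shPC25 and 39.2% with shPC28. Ccne1 and Ccne2, the E cyclins that start S phase with Cdk2, fell by 2.05 ± 0.11 and 1.11 ± 0.12 with shPC25 (adjusted p = 2.79e-05 and 0.000486) and by 2.84 ± 0.11 and 1.29 ± 0.12 with shPC28 (adjusted p = 5.51e-07 and 3.16e-05). E2f6 and E2f8, both repressor members of the E2F family, fell by 1.29 ± 0.11 and 1.12 ± 0.10 with shPC25 (adjusted p = 0.000215 and 0.000196) and by 2.82 ± 0.11 and 2.10 ± 0.10 with shPC28 (adjusted p = 5.63e-07 and 9.06e-07). E2f3 and E2f7 also fell with both hairpins. The 2 genes that rose with shPC28 were E2f1, by 0.39 ± 0.12 (adjusted p = 0.0318), and Rb1, by 0.72 ± 0.13 (adjusted p = 0.00208). Under olfactory receptor centring, 1 gene of the list rose with shPC28. Lin9, part of the DREAM and MuvB complexes, fell with shPC28 by 1.48 ± 0.14 (adjusted p = 3.87e-05). Myc rose by 0.34 ± 0.10 with shPC25 (adjusted p = 0.0394) and fell by 0.47 ± 0.10 with shPC28 (adjusted p = 0.00427). Its shPC25 call was lost without any array but scram replicate 1, shPC28 replicate 1 or shPC28 replicate 2 (adjusted p = 0.0539 to 0.126), with scram and shPC25 fitted alone (adjusted p = 0.06), and with quantile normalization (adjusted p = 0.102) or olfactory receptor centring (adjusted p = 0.103).

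**Figure D4:**
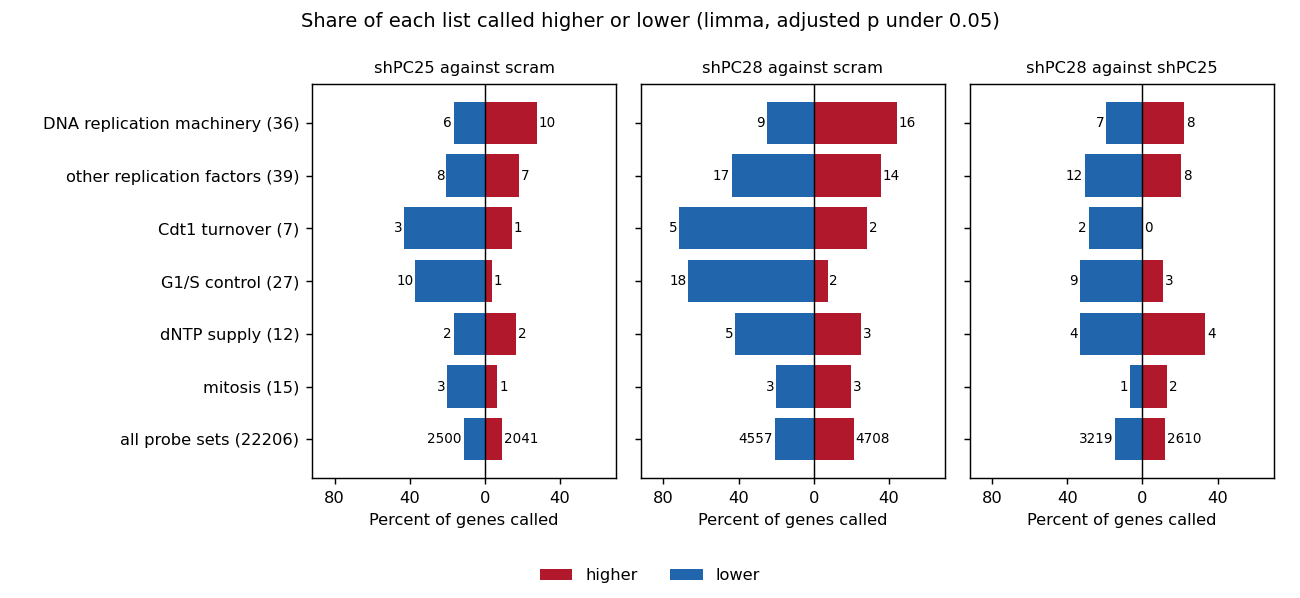
Bars give the percent of each list called higher (right) or lower (left), with the number of genes called at the bar ends and the number measured in brackets, for the 3 comparisons. The replication members have 10 higher and 6 lower with shPC25 and 16 and 9 with shPC28, a balance that turns to 5 and 9 and to 10 and 12 under olfactory receptor centring, while G1/S control genes have 1 and 10 and then 2 and 18.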

How the data were processed

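RNA from E0771 cells was profiled on Clariom S mouse arrays after labelling with the WT PLUS kit, and the authors used Transcriptome Analysis Console 4.0.1. The deposited table holds normalized log2 signals per probe set made by the authors (1.51 to 18.64, array medians 4.875 to 5.04). The log base was taken as 2, and the summarisation method is not given in the sources used here. No array was left out, and the number of arrays, 3 per group, limits the precision. Of 22206 probe sets, 19572 had 1 gene symbol in the platform annotation and 2634 had none. limma 3.58.1 in R 4.3.3 (lmFit, eBayes) estimated a mean for each group from the 9 arrays together, and p-values were adjusted by Benjamini-Hochberg over all probe sets. The script was tested on simulated data. All-array values are given for members called, not overlapping and among the 5 highest or 5 lowest differences of a comparison, and for Cdt1, Gmnn, Pcna, Cdc6 and the Mcm genes, and of other lists up to 4 genes with the smallest p per comparison. E2f1, E2f3, E2f7 and Rb1 were named beyond these rules. Members and lists were chosen with earlier results of these data known. The 20 alternatives covered filters, scaling, variance models, the replicate block, a stricter threshold and each array left out. Promoters came from RefSeq (GRCm38.p6).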

Additional observations from a re-analysis of the deposited data

Results flagged for a closer look

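The effects of shPC25 and shPC28 against scram differed for 15 members, by the direct limma contrast of shPC28 with shPC25 (adjusted p under 0.05), in which the shared scram arrays cancel. The difference of the effects, on the log2 scale, was 0.77 for Gins2, 0.72 for Rfc3, 0.57 for Rfc2, 0.47 for Gins1, 0.43 for Mcm6, 0.43 for Rpa3, 0.39 for Orc6 and 0.35 for Pola1. It was -0.88 for Mcm3, -0.62 for Mcm10, -0.53 for Gmnn, -0.50 for Gins3, -0.41 for Fen1, -0.39 for Cdt1 and -0.33 for Rpa2. Of these, Cdt1, Mcm6 and Rpa3 had differences of opposite sign against scram with the 2 hairpins. No test for single outlying arrays was run in groups of 3 arrays. Each array was left out in turn, and array weights were fitted.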

How the results depend on the processing

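The 9 falls called with shPC28 and 5 of the 6 called with shPC25, all but Gins3, held in 19 alternatives, those other than the stricter threshold, as did the rises of Orc2, Gins2 and Prim2 with shPC25 and of 10 of 16 members with shPC28. No call changed sign. Olfactory receptor centring moved the median of all probe sets by -0.07, -0.20 and -0.13 and array-median centring by 0.10, 0.10 and 0.01 (shPC25, shPC28 and shPC28 against shPC25), and relative to that median the members stood at 0.11, 0.10 and -0.01 with or without them. Among the members' calls, the share higher was 62.5%, 64.0% and 53.3%, beside 44.9%, 50.8% and 44.8% of all calls. With olfactory receptor centring it was 35.7%, 45.5% and 27.3%, beside 32.0%, 31.5% and 26.5%.

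With shPC25, 10 members rose and 6 fell. The count of rises was 5 with olfactory receptor centring, with only the groups compared and with the replicate block, and 3 at an adjusted p under 0.01. Falls numbered 11 without the dimmest 50% of probe sets and 12 with a trended robust fit. The members' median was 0.25 with array-median and 0.08 with olfactory receptor centring, and 2214 probe sets were called at the stricter threshold. Leaving out 1 array gave 3 (without scram replicate 2) to 8 rises, a median of 0.12 to 0.15 and 3021 (without scram replicate 3) to 4512 probe sets, beside 4541.

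With shPC28, the median was 0.18 after quantile normalization, 0.31 with array-median centring, 0.00 with olfactory receptor centring and 0.15 to 0.23 with 1 array left out, and olfactory receptor centring gave 10 rises. In shPC28 against shPC25, quantile normalization gave 4 falls and a median of 0.07, olfactory receptor centring 3 rises and a median of -0.09, the replicate block 5 rises and 3 falls, and the stricter threshold 4 rises, 3 falls and 3550 probe sets. Leaving out 1 array gave 3 (without shPC25 replicate 1) to 6 falls and a median of 0.04 to 0.07. The cause of these changes was not tested, other than that 1 array fewer leaves fewer samples.

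Arrays with the same replicate number did not deviate alike. Deviations from the group means correlated at -0.184 to -0.139 for the 9 pairs of arrays with the same number and at 0.047 to 0.133 for the 18 others. The deviations of a group's arrays cancel, so lower values for same-number pairs bring higher values for the others. The cause of this split by number was not tested. With the number as a replicate block, 3073, 8074 and 4552 probe sets were called, beside 4541, 9265 and 5829.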

Other observations

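Deoxynucleotide supply, which feeds replication, was measured through 12 genes. With shPC25, 2 rose and 2 fell (16.7% each, beside 9.19% and 11.3% of all probe sets), and with shPC28, 3 rose and 5 fell (25.0% and 41.7%, beside 21.2% and 20.5%). Array-median centring gave 2 and 1 and then 4 and 4, and olfactory receptor centring 1 and 2 and then 2 and 5. Among the brighter 50% of probe sets tested alone, 22.4% rose and 24.9% fell with shPC25, and 34.8% and 39.2% with shPC28. Rrm2, the regulated subunit of ribonucleotide reductase, fell by 1.17 ± 0.09 with shPC25 (2.26-fold, limma adjusted p = 0.000145) and by 1.84 ± 0.09 with shPC28 (3.59-fold, adjusted p = 1.36e-06). Tyms, the thymidylate synthase, rose by 0.43 ± 0.10 (adjusted p = 0.014) and 0.93 ± 0.10 (adjusted p = 6.65e-05), and Samhd1, which breaks dNTPs down, rose by 0.32 ± 0.08 (adjusted p = 0.025) and 0.66 ± 0.08 (adjusted p = 0.00019). Dctd, the dCMP deaminase, fell by 0.34 ± 0.10 (adjusted p = 0.0353) and 0.28 ± 0.10 (adjusted p = 0.0419). With shPC28, Cad, the enzyme that opens pyrimidine synthesis, fell by 1.43 ± 0.12 (adjusted p = 1.77e-05), and Dck, the deoxycytidine kinase, by 1.92 ± 0.25 (adjusted p = 0.000243). With shPC25, the call of Tyms was lost without scram replicate 2 (adjusted p = 0.0552), that of Samhd1 without any scram array, shPC25 replicate 1 or shPC25 replicate 3 (adjusted p = 0.0527 to 0.0828), and that of Dctd without scram replicate 1, scram replicate 3, shPC25 replicate 1 or shPC25 replicate 3 (adjusted p = 0.0905 to 0.114). The shPC28 call of Dctd was lost without any array but scram replicate 2 or shPC25 replicate 2 (adjusted p = 0.0521 to 0.123) and with array weights (adjusted p = 0.0519). Array-median centring ended both calls of Dctd (adjusted p = 0.117 and 0.18), as did fitting the compared groups alone (adjusted p = 0.0583 and 0.0699), and olfactory receptor centring ended the shPC25 call of Samhd1 (adjusted p = 0.0946).

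Of 15 mitosis genes, 1 was higher and 3 were lower with shPC25 (beside 9.19% higher and 11.3% lower of all probe sets), and 3 were higher and 3 lower with shPC28 (a share each near the 21.2% and 20.5% of all probe sets). With shPC28 the counts were 2 and 4 under quantile normalization, 5 and 3 under array-median centring and 1 and 6 under olfactory receptor centring. Among the brighter 50%, tested alone, 22.4% of probe sets rose and 24.9% fell with shPC25, and 34.8% and 39.2% with shPC28. Aurkb, the kinase of the chromosomal passenger complex, fell by 0.97 ± 0.09 (adjusted p = 0.000279) and 0.79 ± 0.09 (adjusted p = 0.000135). Cenpf, a kinetochore protein, fell by 0.34 ± 0.10 (adjusted p = 0.0483) and 0.90 ± 0.10 (adjusted p = 0.000124), while Bub1, a kinase of the spindle checkpoint, rose by 0.35 ± 0.09 (adjusted p = 0.0269) and 0.49 ± 0.09 (adjusted p = 0.00209). The proliferation marker gene Mki67 differed by -0.01 ± 0.13 with shPC25 (adjusted p = 0.97) and rose by 0.52 ± 0.13 with shPC28 (adjusted p = 0.0118). Olfactory receptor centring ended the Mki67 call (adjusted p = 0.11). The shPC25 call of Cenpf was lost without any array but shPC28 replicate 3 (adjusted p = 0.0553 to 0.153), and that of Bub1 without any scram array, shPC25 replicate 1 or shPC25 replicate 3 (adjusted p = 0.055 to 0.0906). Cenpf also lost it with quantile normalization (adjusted p = 0.0546), array-median centring (adjusted p = 0.154) and scram and shPC25 fitted alone (adjusted p = 0.0555), and Bub1 with olfactory receptor centring (adjusted p = 0.0811).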
